A study of Homo sapiens with 16 samples.

Results

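The 47 genes described here are interferon-stimulated genes, which cells transcribe more strongly when an interferon binds its receptor. They were chosen by name, by a rule that uses no measured value, though with earlier results of these data known. All 47 were found among the 14857 genes of the deposited table, and no filter on low values was applied, so each of them entered every fit. The question put to the data was how the spread of these genes between clones of the control arm compares with their difference between the arms.

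Interferons signal through receptor-bound kinases of the JAK family to STAT proteins, and STAT2 joins IRF9 in a complex that binds the interferon-stimulated response element (ISRE) of promoters. The products of the induced genes sense viral RNA, degrade it or block its translation, tether virus particles to the membrane, and attach the ubiquitin-like protein ISG15 to other proteins. Many of these genes keep a baseline level in tumour cells without infection or added interferon. Tristetraprolin (TTP), which ZFP36 encodes, binds AU-rich elements in mRNAs and speeds their decay.

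RNA was sequenced from 16 cultures of MDA-MB-231, an established human triple-negative breast cancer line, all carrying a tet-off system, so that the introduced gene is off in doxycycline. Clones EV_A and EV_B held an empty vector and clones TTP_E11 and TTP_H3 held TTP, with 4 libraries per clone that the series calls biological replicates. All cells were kept in G418 and hygromycin B. Maintenance in doxycycline at 2 µg/mL is stated for cells expressing TTP only, so it goes with the arm, and a washout of doxycycline and selection drugs of at least 24 h preceded the experiments. Each group is 1 clone, so an effect of TTP and a trait of 1 clone cannot be told apart within a group. The groups follow the library names, because 7 of the 8 TTP libraries have titles that say EV. ZFP36 stood between 213 and 282 normalized counts (reads divided by 1 size factor per library) in the libraries named EV and between 10160 and 15041 in those named TTP, with no overlap.

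Reads on the listed genes ran from 14380767 to 22066098 per library. All 6 marker genes of the line's mesenchymal state, VIM and AXL among them, were present. ESR1, PGR and CDH1, which such cells should lack, are not analysed here, and EPCAM and GATA3 were between 159 and 309 normalized counts. Of 7 immune markers 4 were measured and summed to between 181 and 209 in EV_A, 118 and 136 in EV_B, 85.3 and 98.3 in TTP_E11, and 73.8 and 136 in TTP_H3. CSF1R made up most of that gap, with clone means of 120 in EV_A and 62.7 in EV_B. The 2 measured of 4 endothelial markers, KDR and ESAM, summed to 181 to 216 in EV and 353 to 446 in TTP, and GATA2, the 1 measured of 3 embryonic kidney markers, stood at 116 to 174 in EV and 220 to 326 in TTP. PECAM1, CDH5, PAX2, LHX1, PTPRC, CD3E and both plasmacytoid dendritic markers are not analysed here, and the part of any other cell type in the results was not tested. In bulk RNA, fewer cells with a transcript and less of it per cell cannot be told apart.

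Replicate 4 of EV_B and replicate 3 of TTP_H3 stood apart. Replicate 4 of EV_B was the lowest library of its clone for 38 of the 47 genes (31.6% of all genes), and replicate 3 of TTP_H3 for 31 (31.1%). Replicate 1 of EV_A was the lowest of its clone for 30 (30%). The median over the 47 genes of a library's log2 level minus the gene's mean was -0.58 in replicate 4 of EV_B, against -0.20, -0.18 and -0.20 in the other EV_B libraries. All EV_A libraries lay between 0.25 and 0.35. The share of reads from mitochondrial genes was 3.52% in replicate 4 of EV_B, the lowest of all libraries, and 4.84% in replicate 3 of TTP_H3, the highest. Its part in the result was not tested.

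**Figure D1:**
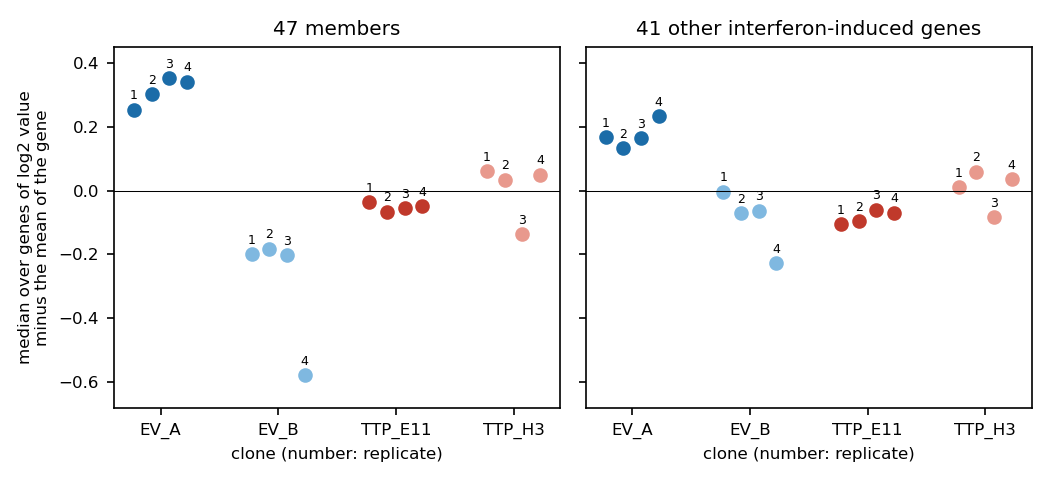
Median over genes of the log2(normalized count + 1) level minus the mean of that gene over all 16 libraries, 1 point per library with its replicate number, by clone, for the 47 genes (left) and for 41 other interferon-induced genes (right). The EV_A libraries are highest in both panels, and replicate 4 of EV_B is lowest in both.

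The clearest difference among these genes was between the empty-vector clones. Of the 47 genes, 39 differed between these clones (36.8% of all genes). Compared with EV_A, EV_B had lower levels of 38 of the 47 genes (limma, Benjamini-Hochberg adjusted p under 0.05 over all genes; 16.6% of all genes were lower) and a higher level of 1, TRIM25 (20.2% of all genes were higher). The median log2 difference was -0.64 for the 47 genes and 0.01 for all genes. Members at least 2-fold lower in EV_B numbered 9 (1.45% of all genes): IFIH1, DHX58, IFIT1, IFIT2, IFIT3, IFITM1, OAS1, OASL and IFI44L. In 40 genes every EV_A library lay above every EV_B library (16.3% of all genes), and in 1 below (19.9%). Every EV_A library lay above all 12 libraries of the other clones for 28 genes (8.7%), and every EV_B library below all others for 16 (3.77%). By clone means alone, EV_A was above EV_B for 45 (49%). Without replicate 4 of EV_B 39 genes were lower (14.3% of all genes), with a median of -0.58.

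Between the arms the genes split. With clones weighted equally, 14 were higher in TTP than in EV (35.4% of all genes) and 21 lower (34.6%), together 35 (70%), while 12 did not pass. Their median log2 difference was -0.14, against 0.00 for all genes, and single genes ran from -1.66 for CMPK2 to 1.69 for IFITM1. By the fold changes and adjusted p-values of the authors' deposited table, higher genes numbered 11 (32% of all genes) and lower genes 18 (31.7%). When clones in place of libraries were the replicates, 2 against 2, 5 of the 47 were higher and 4 lower, and 29.6% of all genes passed. The p-values over libraries rest on differences among cultures of 1 clone, not among clones.

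The balance of higher and lower genes depended on which EV clone was the control. TTP_E11 was higher than EV_A for 6 genes (31.8% of all genes) and lower for 30 (31.3%), but higher than EV_B for 21 (29.9%) and lower for 9 (29.5%). TTP_H3 was higher than EV_A for 8 (32%) and lower for 30 (31.9%), and higher than EV_B for 24 (29.8%) and lower for 9 (29.7%). These comparisons share clones and are not independent of each other. The mean of EV_A was the highest of the 4 clone means for 33 genes (28.5% of all genes) and that of EV_B the lowest for 32 (23.9%). Both TTP means lay between the EV means for 20 (10.2%).

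**Figure D2:**
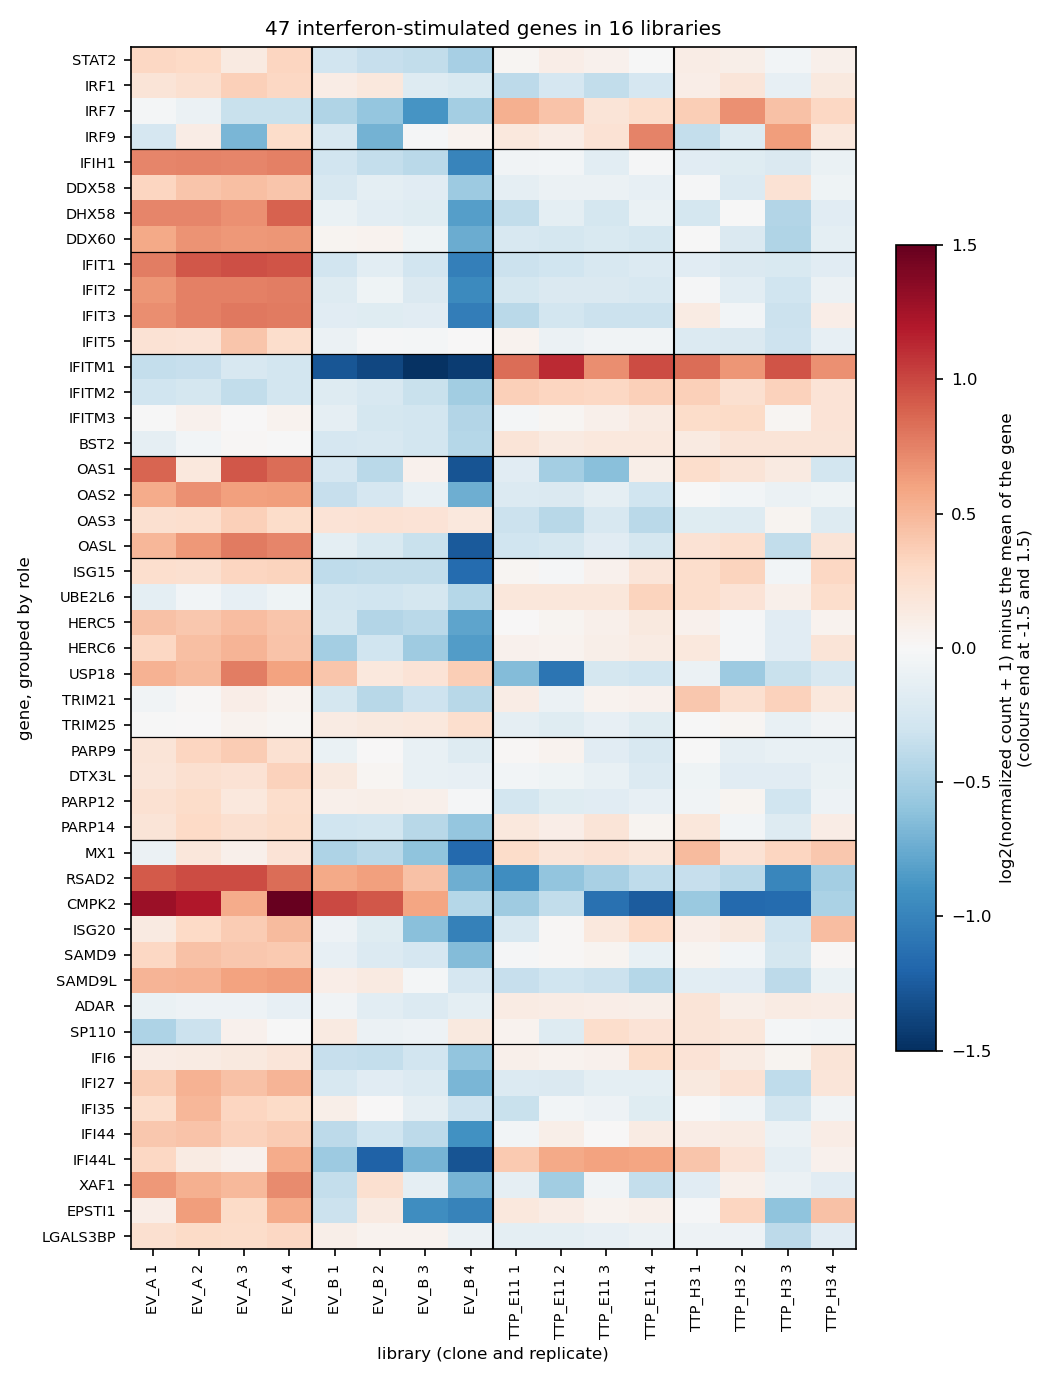
Levels of the 47 genes in 16 libraries as log2(normalized count + 1) minus the mean of the gene, red above and blue below, with genes grouped by role (horizontal lines) and libraries by clone (vertical lines). Most rows are red in EV_A and blue in EV_B. The rows of IFITM1 and CMPK2 differ between EV and TTP libraries, in opposite directions, and that of IFITM1 also differs between EV_A and EV_B.

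The EV clone difference was larger in size than the arm difference for 33 genes (35% of all genes), and the gap between the 2 was then tested gene by gene. It passed for 16 genes (limma, intersection-union test, adjusted p under 0.05; 4.21% of all genes): STAT2, IFIH1, DDX58, DHX58, IFIT1, IFIT2, IFIT3, OAS2, OASL, HERC5, HERC6, PARP14, SAMD9, IFI6, IFI27 and IFI44. The reverse held for 8 (31.3% of all genes): IRF7, IFITM1, IFITM2, OAS3, UBE2L6, USP18, CMPK2 and ADAR. The remaining 23 passed neither test. Leaving out single libraries gave 12 to 18 and 6 to 10 genes, with the counts 15 and 10 without replicate 4 of EV_B.

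**Figure D3:**
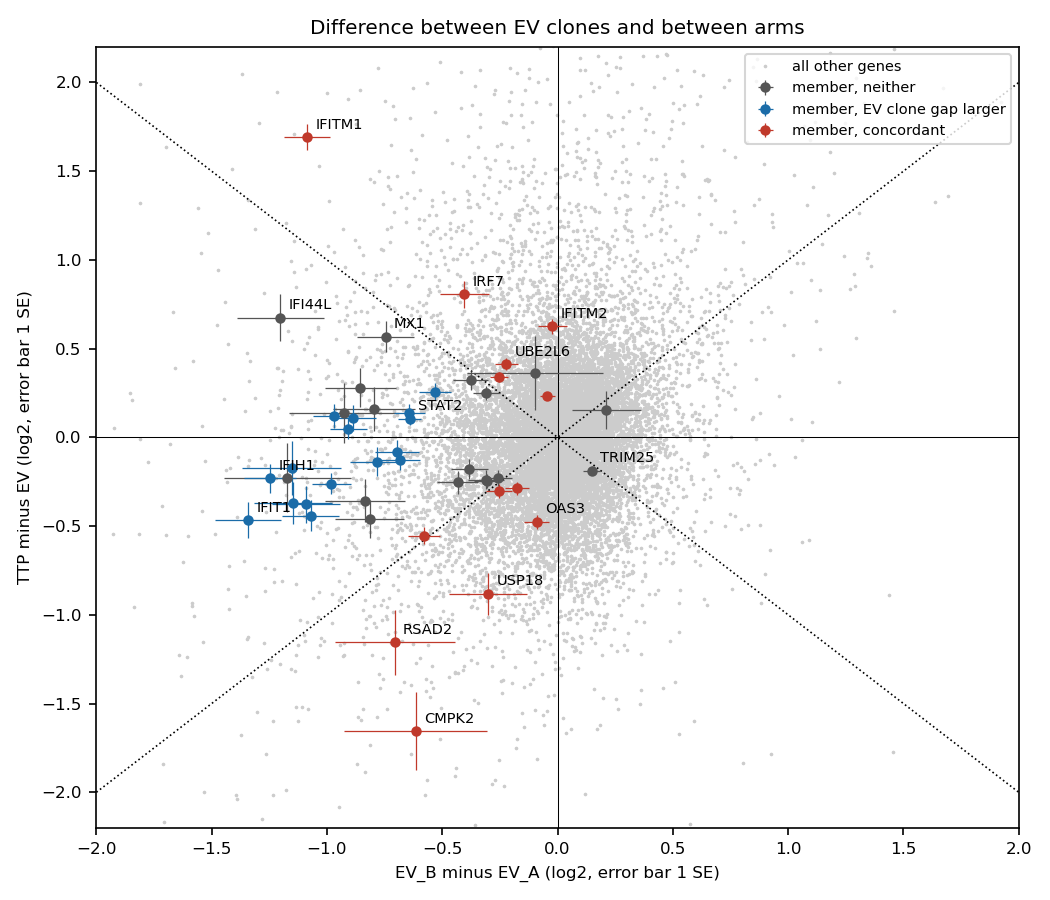
Log2 difference between the EV clones (horizontal) and between the arms (vertical) for each of the 47 genes, with bars of 1 SE, over all other genes in grey. Genes beyond the axes are not drawn. On the dotted diagonals the 2 differences are equal in size, and the 16 blue genes have the larger EV clone difference. Red marks 13 genes that differ the same way in all comparisons of 1 TTP clone with 1 EV clone.

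A gene was called concordant when all 4 comparisons of 1 TTP clone with 1 EV clone passed in the same direction. This held for 6 genes that were higher in TTP (19% of all genes), IRF7, IFITM1, IFITM2, BST2, UBE2L6 and ADAR. It held for 7 that were lower (19.5%), together 13 (38.5%): OAS3, USP18, PARP12, RSAD2, CMPK2, SAMD9L and LGALS3BP. With clones as replicates, PARP12, ADAR, LGALS3BP and SAMD9L did not pass (limma adjusted p = 0.0542, 0.0574, 0.0746 and 0.0908). The count of lower genes was 4 without replicate 1 of EV_B, without replicate 2 of EV_B or without replicate 3 of TTP_H3, and the count of higher genes was 6 whichever library was left out. Non-overlap of all 8 TTP with all 8 EV libraries was seen for the 6 higher genes (15.6% of all genes) and, among the lower, for OAS3 and USP18 (16.2%).

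The transcription factors of the pathway did not move as 1 group. STAT2 (chr12:56341597-56360155), a subunit of the ISRE-binding complex, had normalized counts of 1517, 1504, 1334 and 1524 in EV_A and of 998, 961.5, 943.7 and 865.1 in EV_B. TTP_E11 had 1245, 1303, 1277 and 1217, and TTP_H3 1318, 1293, 1180 and 1290. Every EV_B library was below all others, and the TTP libraries lay between the EV clones. EV_B was lower than EV_A by a log2 difference of -0.64 (SE 0.05, limma adjusted p = 1.38e-11), and TTP was higher than EV by 0.11 (SE 0.04, limma adjusted p = 0.00826). Against EV_A alone the arm difference was -0.21.

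IRF7 (chr11:612553-615999), which amplifies transcription of interferon genes, had 189.4, 181.9, 153.3 and 153.5 in EV_A and 141.9, 129.2, 104.6 and 136.3 in EV_B. TTP_E11 had 280.9, 261.9, 221.6 and 233.2, and TTP_H3 had 250.3, 312.7, 264.3 and 240.1. All TTP libraries were above all EV libraries, and the EV clones did not overlap either. The log2 difference between arms was 0.81 (SE 0.08, limma adjusted p = 2.88e-11), and it passed with clones as replicates (limma adjusted p = 0.0132).

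IRF1 (chr5:132481609-132490798), a factor induced by interferon gamma, had 774.3, 794.6, 861.6 and 838.7 in EV_A, 731.8, 750.7, 591.7 and 577.4 in EV_B, 515.3, 568.9, 521.9 and 566.8 in TTP_E11, and 725.7, 766.4, 617.5 and 747.4 in TTP_H3. TTP_E11 was below every other library, while TTP_H3 overlapped EV_B. TTP_H3 exceeded TTP_E11 by a log2 difference of 0.39 (SE 0.08, limma adjusted p = 0.0017). IRF9 (chr14:24161053-24166565), the DNA-binding subunit of the complex, was near the lower limit of the table, with 12.06, 15.78, 8.66 and 17.75 in EV_A, 12.1, 8.471, 14.27 and 15.05 in EV_B, 16.3, 15.69, 16.98 and 24.89 in TTP_E11, and 11.1, 12.6, 22.94 and 16.25 in TTP_H3. The other clones all overlapped EV_A, while every TTP_E11 library was above every EV_B library. For IRF9 neither the EV clone difference nor the arm difference passed.

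All 4 sensors of viral RNA were lower in EV_B than in EV_A. IFIH1 (chr2:162267079-162318703), which encodes MDA5, had 1285, 1301, 1286 and 1306 normalized counts in EV_A and 636, 606.7, 587 and 388.4 in EV_B. In TTP_E11 it had 749.8, 752.3, 697 and 764.1, and in TTP_H3 690.4, 683.9, 669.3 and 720.3. The TTP libraries lay just above EV_B and far below EV_A, with no overlap among the 3 levels. EV_A was 2.33-fold higher than EV_B (log2 difference of EV_B to EV_A -1.25, SE 0.11, limma adjusted p = 9.51e-07), while TTP was lower than EV by a log2 difference of -0.23 (SE 0.08, limma adjusted p = 0.0186). Against EV_B alone the arm difference was 0.39.

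DDX58, the gene of RIG-I, had a mean of 1753 ± 66 (SD, n = 4) in EV_A and 1099 ± 133 in EV_B. Its TTP means were 1227 ± 21.7 in TTP_E11 and 1316 ± 162 in TTP_H3, and the arms did not differ past the threshold. DHX58, the gene of LGP2, had 387 ± 23.9 in EV_A and between 187 and 197 as the mean of each other clone. DDX60, a helicase linked to RIG-I signalling, had 1318 ± 45.5 in EV_A against means of 711 to 767 in the others. By clone means EV_A alone was high for both genes. For DDX60 the EV_B libraries had 872.6, 878.9, 811.5 and 505, the last in replicate 4, which stood apart. TTP_E11 ran from 702.3 to 720.3 and TTP_H3 from 616.5 to 840.8. TTP was lower than the EV average by -0.44 for DHX58 and -0.46 for DDX60 on the log2 scale. Without replicate 4 of EV_B these differences were -0.52 and -0.56.

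The IFIT family, whose proteins bind viral RNA and block its translation, was lower in EV_B for all 4 members and lower in TTP than in EV for all 4. IFIT1 (chr10:89392546-89406486) had 3478, 3893, 4006 and 3943 in EV_A, 1668, 1834, 1674 and 1006 in EV_B, 1629, 1655, 1735 and 1773 in TTP_E11, and 1809, 1753, 1747 and 1820 in TTP_H3. The 4 EV_A libraries were far above the other 12, and EV_B overlapped both TTP clones. EV_A was 2.48-fold higher than EV_B (log2 difference -1.34, SE 0.14, limma adjusted p = 9.71e-06). TTP_E11 differed from EV_A by a log2 difference of -1.17 and from EV_B by 0.17, and TTP_H3 by -1.10 and 0.24.

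Against EV_B alone the arm difference of IFIT1, IFIT2 and IFIT3 was above 0, by 0.17 to 0.21, and did not pass for any of them. Replicate 4 of EV_B, which stood apart, had 0.58, 0.58 and 0.55 of the mean of the other EV_B libraries for these genes. The difference from EV_B was not computed without that library. IFIT2 had a mean of 2708 ± 90.9 in EV_A and means between 1305 and 1477 in the other clones, and IFIT3 had 5621 ± 159 in EV_A and between 2614 and 3262 elsewhere. IFIT5 differed less, with 785 ± 54.4 in EV_A and 633 ± 16.9 in EV_B, and with 633 ± 26.1 in TTP_E11 and 559 ± 28.8 in TTP_H3.

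The IFITM genes, whose proteins hinder fusion of viruses with membranes, and BST2, the gene of tetherin, formed the 1 group in which all 4 members were higher in TTP. IFITM1 (chr11:313506-315272) had 118.2, 118.8, 128.2 and 124.3 in EV_A, 61.62, 58.24, 53.28 and 55.48 in EV_B, 270.8, 329.6, 244.9 and 298.6 in TTP_E11, and 270.5, 240.6, 292.3 and 244.6 in TTP_H3. The levels formed 3 bands that did not overlap, EV_B, then EV_A, then both TTP clones. TTP was 3.05-fold higher than EV (log2 difference 1.69, SE 0.07, limma adjusted p = 7.28e-20). The EV clones themselves differed by -1.09 on the log2 scale (SE 0.10, limma adjusted p = 7.75e-10).

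IFITM2 (chr11:307631-315272) had 457.1, 471.6, 436.4 and 467.7 in EV_A, 491.9, 479.7, 447.1 and 392.1 in EV_B, 724.7, 705.3, 700.6 and 724.4 in TTP_E11, and 721.7, 667.8, 718.2 and 652.6 in TTP_H3. Here the EV clones overlapped and all TTP libraries were above them, with a log2 difference of 0.62 (SE 0.04, limma adjusted p = 2.34e-14). BST2 was 1.26-fold and IFITM3 1.18-fold higher in TTP, and both were lower in EV_B than in EV_A. For IFITM3, TTP_E11 differed from EV_A by a log2 difference of 0.02, which did not pass. One transcript of IFITM2 shares an exon with IFITM1, and the IFITM genes are close copies of each other, so the assignment of reads among them is uncertain.

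The OAS genes, whose products activate RNase L when they meet double-stranded RNA, split between the 2 patterns. OAS3 (chr12:112938352-112973249) had 1026, 1042, 1121 and 1054 in EV_A, 1002, 1012, 1001 and 970.4 in EV_B, 695.9, 655.2, 739 and 658.1 in TTP_E11, and 766.1, 762.9, 899.8 and 761 in TTP_H3. All TTP libraries were below all EV libraries, and the log2 difference was -0.48 (SE 0.04, limma adjusted p = 6.62e-13). OAS1 (chr12:112906777-112933222) had few reads, with 37.39, 22.28, 38.97 and 36.39 in EV_A, 16.51, 14.82, 20.93 and 7.523 in EV_B, 17.55, 13.73, 12.51 and 21.2 in TTP_E11, and 24.22, 22.91, 21.95 and 16.25 in TTP_H3. Its EV_A libraries were above all EV_B libraries (log2 difference -1.17, SE 0.27, limma adjusted p = 0.00102), and its TTP libraries overlapped EV_B, while TTP_H3 also reached EV_A. OAS2, with 594 ± 22.7 in EV_A, and OASL, with 862 ± 74.5, were lower in EV_B, at 304 ± 52.8 and 403 ± 120.

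ISG15 itself, the ubiquitin-like protein, had a mean of 3488 ± 109 normalized counts in EV_A and 1975 ± 463 in EV_B, and of 2988 ± 177 in TTP_E11 and 3334 ± 377 in TTP_H3. It was higher in TTP than in EV by a log2 difference of 0.28 (SE 0.11, limma adjusted p = 0.0353), and against EV_A alone the difference was -0.15. UBE2L6 (chr11:57551656-57568284), the enzyme that carries ISG15 to its ligases, had 932.3, 1001, 947.4 and 983.4 in EV_A, 855, 837.6, 856.2 and 766.4 in EV_B, 1157, 1165, 1162 and 1301 in TTP_E11, and 1239, 1191, 1084 and 1238 in TTP_H3. Every TTP library of UBE2L6 was above every EV library, with a log2 difference of 0.41 (SE 0.04, limma adjusted p = 6.35e-12). HERC5, the main ISG15 ligase, and HERC6 were lower in EV_B by log2 differences of -0.91 and -0.97, and neither differed between arms past the threshold.

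USP18 (chr22:18149899-18177397), the protease that removes ISG15 and also restrains the interferon receptor, had 80.81, 77.97, 95.26 and 85.21 in EV_A, 74.83, 62.47, 64.69 and 72.4 in EV_B, 35.11, 25.5, 46.47 and 45.16 in TTP_E11, and 52.48, 37.8, 43.89 and 46.94 in TTP_H3. All EV libraries were above all TTP libraries. EV was 1.84-fold higher than TTP (log2 difference of TTP to EV -0.88, SE 0.12, limma adjusted p = 7.61e-08), and the EV clones did not differ past the threshold.

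TRIM25 (chr17:56836387-56914080), a ubiquitin ligase for RIG-I, was the 1 gene higher in EV_B, with 3482, 3522, 3626 and 3574 in EV_A and 3808, 3864, 3907 and 4166 in EV_B. TTP_E11 had 3195, 3096, 3223 and 3081, and TTP_H3 3498, 3587, 3231 and 3381. The EV clones did not overlap, but the ratio of EV_B to EV_A was 1.11 (log2 difference 0.15, SE 0.04, limma adjusted p = 0.00144). TRIM21, an antibody-binding ubiquitin ligase, was lower in EV_B by -0.38 and higher in TTP by 0.32 on the log2 scale.

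The 4 genes of the PARP9-DTX3L group, ADP-ribosyltransferases and a ubiquitin ligase that partners PARP9, were all lower in EV_B, by log2 differences from -0.64 for PARP14 to -0.18 for PARP12. PARP9, DTX3L and PARP12 were lower in TTP than in EV, and PARP14 was higher, but against EV_B alone PARP9 differed by 0.013, and against EV_A alone PARP14 differed by -0.18. PARP12 was concordant, with means of 1366 ± 52.3 in EV_A and 1208 ± 42.1 in EV_B, and of 1020 ± 42.6 in TTP_E11 and 1090 ± 103 in TTP_H3.

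CMPK2 (chr2:6840570-6866635), a mitochondrial nucleotide kinase, had the largest fall in TTP among the 47, though from few reads. Its normalized counts were 42.21, 39.92, 25.11 and 48.82 in EV_A, 34.11, 32.82, 25.69 and 12.22 in EV_B, 11.28, 12.75, 7.149 and 6.452 in TTP_E11, and 11.1, 6.873, 6.983 and 11.73 in TTP_H3. Replicate 4 of EV_B reached down into the range of TTP_E11, and the other 7 EV libraries were above all TTP libraries. EV was 3.51-fold higher than TTP (log2 difference of TTP to EV -1.66, SE 0.22, limma adjusted p = 5.07e-08).

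RSAD2 (chr2:6865806-6898239), the gene of viperin, lies next to CMPK2 on the opposite strand. It had 422.1, 440.9, 440.8 and 399.4 in EV_A, 331.2, 342, 303.5 and 133.5 in EV_B, 116.6, 147.1, 159.1 and 171.4 in TTP_E11, and 174.6, 168.4, 112.7 and 156.2 in TTP_H3. Here too replicate 4 of EV_B alone fell among the TTP libraries. EV was 2.33-fold higher than TTP (log2 difference of TTP to EV -1.15, SE 0.18, limma adjusted p = 8.07e-05). Between the EV clones the difference was -0.71 (limma adjusted p = 0.0504), and without replicate 4 of EV_B it was -0.39 (limma adjusted p = 0.0211). Exons of CMPK2 and RSAD2 overlap, and counting by strand is not stated, so reads from the overlap cannot be told apart.

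Among the other effectors, MX1, a GTPase that traps viral nucleocapsids, was 1.43-fold higher in TTP. Its mean was 390 ± 35.1 in EV_A and 236 ± 51 in EV_B, and 424 ± 13.9 in TTP_E11 and 468 ± 34.9 in TTP_H3. Its log2 difference from EV_B was 0.87 in TTP_E11 and 1.01 in TTP_H3, and from EV_A 0.12 and 0.27. SAMD9L, a translation-inhibiting antiviral factor, was lower in TTP by -0.55, and its neighbour SAMD9 differed by -0.08, which did not pass. ADAR, the RNA-editing enzyme, was higher by 0.23 (SE 0.02, limma adjusted p = 1.28e-10) with overlapping EV clones. With clones as replicates ADAR did not pass (limma adjusted p = 0.0574). ISG20, an RNA exonuclease, was lower in EV_B by -0.79, and SP110, a nuclear body protein, passed neither comparison.

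All 8 of the remaining induced genes were lower in EV_B. IFI44L (chr1:78619922-78646145) had 50.66, 44.56, 42.43 and 60.35 in EV_A, 27.51, 16.94, 24.73 and 15.99 in EV_B, 53.91, 60.82, 62.55 and 61.75 in TTP_E11, and 54.5, 46.97, 36.91 and 42.43 in TTP_H3. EV_B was below all other libraries (log2 difference to EV_A -1.20, SE 0.19, limma adjusted p = 7.03e-06), and both TTP clones overlapped EV_A. IFI6, a mitochondrial survival protein, was also lowest in EV_B, with 301 ± 27.5 against means of 430 to 436 in the other clones. XAF1, a partner of the apoptosis inhibitor XIAP, was highest in EV_A, with 77.8 ± 5.75 against 42.6 to 48.1. LGALS3BP, a secreted galectin-binding glycoprotein, had 11608 ± 227 in EV_A and 9738 ± 531 in EV_B, then 8767 ± 163 in TTP_E11 and 8476 ± 844 in TTP_H3, and was lower in TTP in all 4 clone comparisons.

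**Figure D4:**
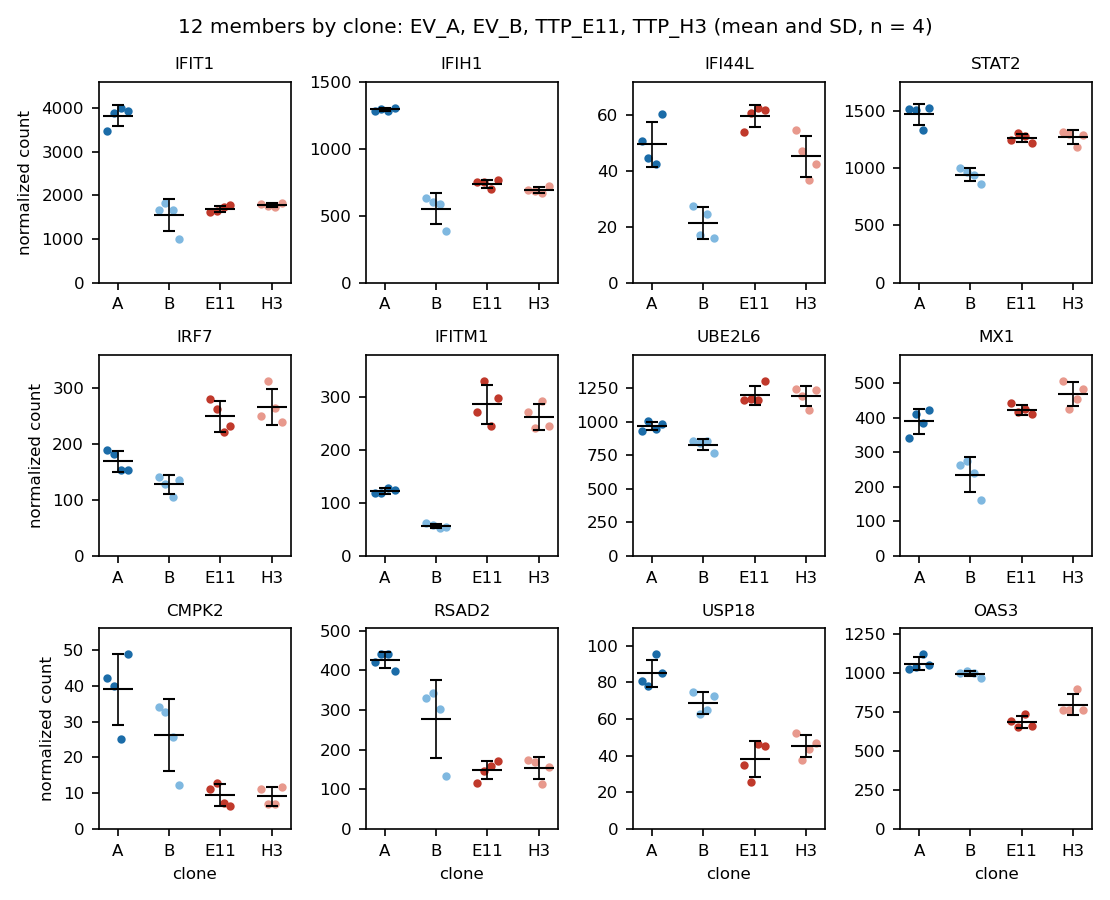
Normalized counts of 12 of the 47 genes in every library by clone, with the mean and SD (n = 4) as bars and linear axes from 0. IFIT1 and IFIH1 are highest in EV_A, IFI44L and STAT2 are low in EV_B, and IRF7, IFITM1 and UBE2L6 are above both EV clones in every TTP library. USP18 and OAS3 are below both EV clones in every TTP library.

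Per kilobase of exon, LGALS3BP had the highest level in EV_A of the 47 genes (4505 normalized counts per kilobase), followed by ISG15 (3707), BST2 (2625) and IFITM3 (2570). IRF9 (6.90), OAS1 (8.20), IFI44L (8.43) and CMPK2 (9.96) were lowest. The order of the highest 4 was different in EV_B, where LGALS3BP (3779) was followed by BST2 (2200), ISG15 (2099) and IFITM3 (2080).

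Between the TTP clones 5 of the 47 genes differed (11.7% of all genes). IRF1, OAS3, TRIM21 and TRIM25 were higher in TTP_H3 (6.35% of all genes) and IFIT5 was lower (5.32%), by log2 differences from -0.18 for IFIT5 to 0.39 for IRF1. The median size of the difference was 0.09 (0.10 for all genes), against 0.64 between the EV clones (0.15 for all genes). The count was 2 without replicate 1 of TTP_H3, 3 without replicate 2 of TTP_H3 or without replicate 2, 3 or 4 of TTP_E11, and 12 without both libraries that stood apart. The shares of all genes in these refits were not computed.

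Promoter sequence from RefSeq (GRCh38.p14) was used to see which of these genes carry the letters of an ISRE near their start. The window ran from 250 bases before to 50 after a start, and the motif was GAAANNGAAA on either strand, with overlapping matches counted. Of the 47 genes 40 matched by symbol, and 26 of these held the motif (65%), against 4.38% of the 27305 genes with a promoter in that table. Not matched were IRF7, DHX58, IFIT2, IFITM2, OAS2, OASL and USP18. The sites below, in capitals within 30 bases 5′ to 3′ along the gene, show the motif in 3 genes that were at least 2-fold lower in EV_B (IFIH1, IFIT1, IFITM1) and in 3 that were concordant between arms (BST2, OAS3, RSAD2).
IFIH1: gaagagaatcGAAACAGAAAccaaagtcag
IFIT1: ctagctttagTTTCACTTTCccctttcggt
IFITM1: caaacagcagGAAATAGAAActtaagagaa
BST2: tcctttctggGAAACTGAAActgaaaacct
OAS3: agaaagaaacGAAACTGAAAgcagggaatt
RSAD2: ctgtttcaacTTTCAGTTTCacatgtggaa

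They lie at chr2:162318686-162318715 on the minus strand (IFIH1), chr10:89392497-89392526 (IFIT1), chr11:313990-314019 (IFITM1), chr19:17405741-17405770 on the minus strand (BST2), chr12:112938321-112938350 (OAS3) and chr2:6877622-6877651 (RSAD2), the others on the plus strand. The sites begin 21 (IFIH1), 116 (IFIT1), 40 (IFITM1), 130 (BST2), 143 (OAS3) and 145 (RSAD2) bases before a start. In IFIT1 and RSAD2 the site reads TTTCNNTTTC, the same motif on the other strand. EV_B was lower than EV_A for 24 of the 26 genes with the motif and for 9 of the 14 without. Of all genes 16.6% were lower, and the shares of all genes with and without the motif were not computed. The median log2 differences of the 26 and the 14 genes were -0.73 and -0.51. Between arms the medians were -0.02 and -0.16. These are descriptions of the letters in 1 window, and binding was not measured.

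TTP binds the AU-rich core UAUUUAU in 3′ UTRs, so the longest 3′ UTR of each gene's principal isoform (GENCODE 29) was searched for it on the RNA strand. It was present in 12 of the 47 genes (25.5%), against 32.9% of 12530 genes, and the longer UUAUUUAUU in 0, against 8.61%. The median 3′ UTR was 651 bases for the 47 genes and 1112 for all. Of the 12 genes with the core, 9 were lower in TTP and 1 higher, with a median log2 difference of -0.31. Of the 4124 genes of the table with the core, 50.2% were lower and 26.5% higher, with a median of -0.11. Of the 35 without, 12 were lower and 13 higher, with a median of 0.11, against 30.3% lower and 44.1% higher and a median of 0.06 for all 8406 genes without it. Of the 12 genes 3 were concordantly lower and 0 concordantly higher, against 33.2% and 13.5% of all genes with the core. Among the 9 lower genes, the differences of IFIT2 (0.17), IFIT3 (0.20) and OAS2 (0.23) were above 0 against EV_B alone. In replicate 4 of EV_B, which stood apart, they had 0.58, 0.55 and 0.71 of the mean of the other EV_B libraries. The 3 concordantly lower genes with the core are shown here, with the core in capitals.
USP18: acugagccuUAUUUAUaauuaggga
CMPK2: uauuuugcuUAUUUAUauuucuuuu
SAMD9L: aaauacguuUAUUUAUaucuuuaug

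The core begins at base 129 of 580 in the 3′ UTR of USP18, at base 716 of 1534 in CMPK2 and at base 32 of 1162 in SAMD9L. Further copies lie at base 508 in USP18, at base 814 in CMPK2 and at bases 1148 and 1152 in SAMD9L. The other 4 concordantly lower genes held no copy, in 3′ UTRs of 3276 bases in OAS3, 2297 in RSAD2, 816 in PARP12 and 338 in LGALS3BP.

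Genes upstream of the 47 were counted from lists of the pathway. No interferon gene of 9 listed is analysed here. The shares over all genes, against which the counts of each list are read, were 35.4% higher and 34.6% lower in TTP, and 20.2% higher and 16.6% lower in EV_B. Concordant genes made up 19% (higher) and 19.5% (lower). Of 11 receptor, kinase and STAT genes 4 were higher and 4 lower in TTP, and in EV_B 3 were lower and 0 higher. The interferon gamma receptor IFNGR1 (log2 difference 0.46) and the kinase JAK1 (0.26) were concordantly higher in TTP, and STAT3 (-0.19) was concordantly lower. None of these 3 differed between the EV clones past the threshold, with log2 differences from -0.04 to 0.06.

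All 11 measured negative regulators of the pathway differed between arms (70% of all genes), 4 higher and 7 lower in TTP, with 1 and 6 of them concordant (19% and 19.5% of all genes). In EV_B 2 were higher and 3 lower, together 5 (36.8% of all genes). SOCS1, a feedback inhibitor of JAK kinases, had a mean of 117 ± 16.4 in EV_A and 115 ± 23.8 in EV_B, and of 35.7 ± 4.98 in TTP_E11 and 48.9 ± 13.1 in TTP_H3. Its log2 difference between arms was -1.46 (SE 0.13, limma adjusted p = 4.66e-11). SOCS3 was lower by -0.96 and the phosphatase PTPN11 by -0.81, and the phosphatase PTPN6 was higher by 1.03. The EV clones also differed past the threshold for these genes, with EV_B to EV_A at -0.29 for SOCS3, 0.26 for PTPN11 and -0.84 for PTPN6. PTPN6 had low means of 54.1 in EV_A and 29.7 in EV_B.

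Of 20 measured genes of nucleic acid sensing outside the 47, 6 were higher (35.4% of all genes) and 5 lower (34.6%) in TTP, and 4 were higher (20.2%) and 4 lower (16.6%) in EV_B. The DNA sensor CGAS was lower in TTP by -0.68 on the log2 scale and the DNA sensor IFI16 higher by 0.42. In a list of 41 other interferon-induced genes, 13 were higher and 16 lower in TTP (35.4% and 34.6% of all genes), while 3 were higher and 24 lower in EV_B (20.2% and 16.6%), with a median log2 difference between the EV clones of -0.28. The 4 concordant genes of that list whose smallest clone difference was largest were STAT4, BATF2, APOL6 and GBP1, with arm differences of 1.48, 1.22, -1.16 and -0.48 on the log2 scale. The EV clones also differed past the threshold for STAT4 (0.54), APOL6 (-0.72) and GBP1 (-0.20). In EV_A and EV_B the means were low for STAT4 (18.7 and 28.2) and BATF2 (23.2 and 17.7).

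**Figure D5:**
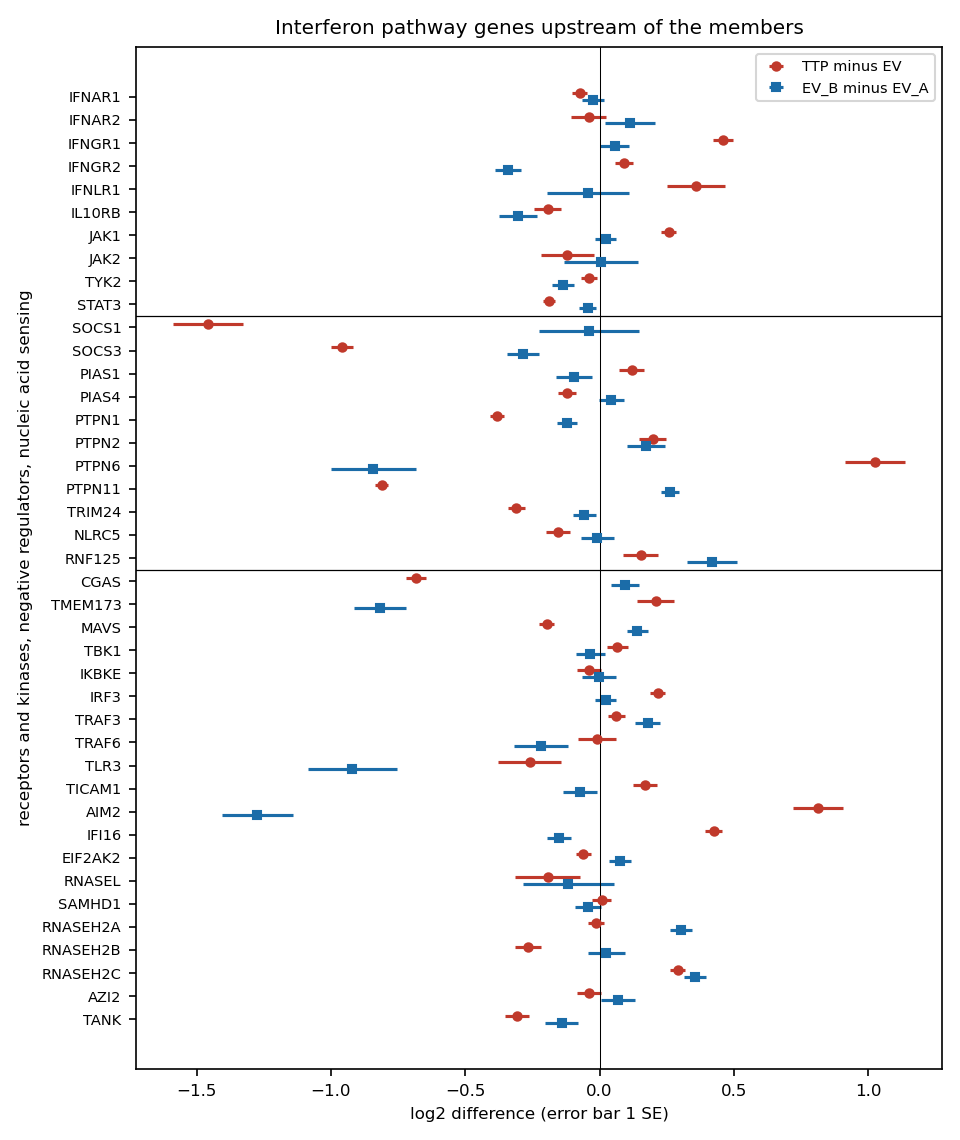
Log2 difference between arms (red circles) and between EV clones (blue squares), with bars of 1 SE, for receptor, kinase and STAT genes, 11 negative regulators and 20 genes of nucleic acid sensing, separated by lines. The circles of SOCS1 (-1.46) and SOCS3 (-0.96) lie farthest to the left, and the square of SOCS1 (-0.04) is near 0. The squares of JAK1 and STAT3 lie within 0.1 of 0.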

How the data were processed

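The authors deposited a table of 14857 genes in which each library has a normalized signal. Its values are read counts divided by a size factor of the library, called normalized counts here. Per the file headers, further columns give a log2 fold change with its p-value and adjusted p-value for TTP against EV, as the authors computed them. The build GRCh38 and the tools STAR 2.5.2b, Trimmomatic 0.36, DESeq2, Subread 1.5.2 and featureCounts come from the submitters' processing notes, with no roles given, and neither the annotation nor the strand setting is given in the sources used here. The lowest mean in the table was 9.68, so weaker genes are not analysed here. In every library 100% of values were whole multiples of 1 read within 0.001. In replicates 1 and 3 of TTP_H3 1 read was worth 1.01 and 0.998, so this check is weaker there.

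The main test was limma 3.58.1 in R 4.3.3 (robust trend) on log2(value + 1), which understates changes of genes with few reads. All 16 libraries entered 1 fit with 4 clone groups, with Benjamini-Hochberg adjustment over all genes and a threshold of 0.05. For the size of the 2 differences, the larger of the one-sided p-values of their sum and difference was used. Tested on simulated data of 14857 genes, this called 97% of genes changed 1.5-fold between arms and 86% between EV clones, and 51% for an EV clone difference larger than the arm difference. Of the unchanged genes 14 were called between arms and 7 between EV clones. Of 200 genes changed 1.5-fold or 2-fold in EV_A alone, which also moves the EV average, 165 were called between arms, and of 200 changed between arms 2 were called between EV clones. The recovered reads were also tested with edgeR 4.0.16 and with DESeq2 1.42.0. Further alternatives were other scalings, pseudocounts of 0.1 and 10, a minimum mean of 50, single libraries left out, clone means, each EV clone as sole control, and the clones ignored. Libraries were grouped by the library name.

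The 47 genes and the other lists were chosen with earlier results of these data known. Values in every library are given for the 4 transcription factors and, in each direction, for the 4 concordant genes with the largest smallest clone difference and the up to 4 genes with the largest EV clone difference. From each upstream list at most 4 concordant genes are named, and 1 gene that this rule names is not reported here. Positions are from GENCODE 29 on GRCh38, where exons of 13 of the 47 genes overlap a gene on the other strand and those of 5 a gene on the same strand. Replicate numbers did not pair the libraries: over 24 pairs of same-numbered libraries the correlation of deviations from the clone means ran from -0.09 to 0.10, with 0 above 0.1.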

Additional observations from a re-analysis of the deposited data

Results flagged for a closer look

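Within a clone, 17 of 188 sets of 4 libraries held a value far from the other 3 for its gene, where chance gives about 1 in 20. The sets share libraries and are not independent of each other, and the share over all genes was not computed. Replicate 4 of EV_B was far below the rest for 5 genes, with 128.8 normalized counts of DHX58 (others 200.7 to 213.5), 1623 of IFIT3 (2928 to 2956), 1281 of ISG15 (2185 to 2218), 1145 of PARP12 (1222 to 1237) and 182.4 of IFI27 (249.8 to 261.5). Replicate 3 of TTP_H3 was far below for OASL with 421 (620.1 to 648.4), IFI27 with 225.4 (327 to 342.5) and IFI44 with 810 (930.7 to 940.5), and far above for OAS3 with 899.8 (761 to 766.1).

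Replicate 4 of TTP_E11 was far above the others for IRF9 with 24.89 (15.69 to 16.98), UBE2L6 with 1301 (1157 to 1165) and IFI6 with 477.4 (411 to 417.5). Replicate 1 of TTP_H3 was low for BST2 with 3024 (3134 to 3149) and high for PARP9 with 253.3 (232.5 to 235.6). In EV_A, STAT2 was low in replicate 3 with 1334 (1504 to 1524), IFIT2 in replicate 1 with 2573 (2739 to 2768) and OAS1 in replicate 2 with 22.28 (36.39 to 38.97).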

How the results depend on the processing

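The 38 genes lower in EV_B were 37 to 39 under every other scaling, pseudocount, minimum mean, count model and left-out library. Between arms, clone means as replicates gave 5 higher and 4 lower genes, and ignoring the clones gave 12 lower. EV_A alone as control gave 6 higher genes, and EV_B alone 24 higher and 8 lower. With EV_A alone the log2 arm difference changed sign for STAT2 (-0.21), ISG15 (-0.15), HERC5 (-0.40), HERC6 (-0.36), PARP14 (-0.18), IFI6 (-0.0091), IFI44 (-0.34), ISG20 (-0.24) and EPSTI1 (-0.33), the last 2 past the threshold in neither fit. With EV_B alone it changed sign for IFIH1 (0.39), DDX58 (0.21), DHX58 (0.095), IFIT1 (0.21), IFIT2 (0.17), IFIT3 (0.20), OAS2 (0.23), PARP9 (0.013), SAMD9 (0.27), IFI27 (0.26), XAF1 (0.060), OAS1 (0.36) and OASL (0.40), the last 2 past the threshold in neither fit. Replicate 4 of EV_B is part of the EV_B control, and these signs were not computed without it. Without the 2 libraries that stood apart, 12 genes differed between the TTP clones, and the share of all genes in that fit was not computed. The cause was not tested.

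Leaving out 1 library gave 13 to 15 higher and 21 to 25 lower genes in TTP, 38 to 39 lower and 1 higher in EV_B, 2 to 7 between the TTP clones, 6 concordant higher and 4 to 8 concordant lower, 6 to 10 with the larger arm difference and 12 to 18 with the larger EV clone difference. Shares of all genes were computed in these refits only without replicate 4 of EV_B. There 14.3% of all genes were lower in EV_B and 3.07% had the larger EV clone difference. The replicate block gave 13 higher and 22 lower genes in TTP, 1 higher and 38 lower in EV_B, and 14 genes with the larger EV clone difference. The replicate number is only a number here: 3 of 16 libraries correlated best with their own. With a mean of at least 50, 43 of the 47 genes were tested. IRF9, OAS1, CMPK2 and IFI44L had the fewest reads, and the SE of the arm difference was widest for CMPK2 (0.22), IRF9 (0.21) and OAS1 (0.19).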

Other observations

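Of the 47 genes 21 lie in 8 groups whose members are within 200 kb of each other, and neighbours did not always have the same arm difference. On chromosome 7, SAMD9L was lower in TTP by a log2 difference of -0.55, and SAMD9 beside it differed by -0.08. On chromosome 12, OAS3 differed between arms by -0.48 and between EV clones by -0.09, while OAS2 differed by -0.26 and -0.98. On chromosome 1, IFI44L differed between arms by 0.68 and IFI44 by 0.11, and both were lower in EV_B, by -1.20 and -0.89. On chromosome 2, CMPK2 and RSAD2 differed between arms by -1.66 and -1.15. The differences between neighbours were not tested.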
